A study of Rattus norvegicus with 2 samples.

Results

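Ppa2, Suox and Lrp16 encode enzymes that work in or at mitochondria and are made from nuclear genes. They were 3 of the 20174 genes on the array. They were picked by name from the rows of the study's gene list that are marked for the mitochondrion, which hold 10 other genes, enzymes among them, and that list itself was drawn from the 2 ratios described here, so the ratios that chose them are given as a description without a test. The array identifiers were ENSRNOG00000012091 for Ppa2, ENSRNOG00000005987 for Suox and ENSRNOG00000021174 for Lrp16, whose current symbol is Macrod1. Each gene had 1 spot on the array.

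Ppa2 is the mitochondrial inorganic pyrophosphatase, which splits the pyrophosphate released by biosynthetic reactions into phosphate. Suox is sulfite oxidase, a molybdenum cofactor and heme enzyme of the intermembrane space, which turns sulfite from sulfur amino acid breakdown into sulfate and passes the electrons to cytochrome c. Lrp16 is a macrodomain protein that removes ADP-ribose from proteins and cleaves O-acetyl-ADP-ribose. Cardiac muscle is rich in mitochondria, and lower expression of genes for mitochondrial metabolism is a known feature of the failing heart. Protein, its place in the cell and enzyme activity were not measured.

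The RNA came from the left ventricles of male Dahl salt-sensitive (DS) rats, an inbred strain that becomes hypertensive and develops heart failure on a high-salt diet. NS (−) rats were fed 0.3% NaCl and received no chaetocin, HS (−) rats were fed 8% NaCl and received no chaetocin, and HS (ch+) rats were fed 8% NaCl and were injected intraperitoneally with 0.25 mg/kg chaetocin 2 times a week from 6 to 13 weeks of age. Chaetocin is a fungal compound that inhibits SU(VAR)3-9, a methyltransferase of histone H3 lysine 9, and the study asked which transcripts change with heart failure and with this inhibitor. Whether the rats without chaetocin received vehicle is not given in the sources used here. RNA of 3 rats was pooled for each channel. Array 1 carried HS (−) in Cy5 and NS (−) in Cy3, and array 2 carried HS (−) in Cy5 and HS (ch+) in Cy3. Each comparison therefore rested on 1 array with no replicate and no exchange of dyes, so no p-value could be given and differences in dye cannot be told apart from differences between the groups on an array. The spread between animals was not measured.

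As a yardstick, the HS (−) channel was read on both arrays. Over the 4127 genes that had both ratios and reached 100 in the HS (−) channel of each array, its log2 signals differed between arrays with an SD of 0.16 around their median, which is 1.12-fold. This yardstick covers the arrays and, if separately labelled, the labelling, but not the animals. The median ratios of these genes were 0.978 for HS (−)/NS (−) and 1.02 for HS (ch+)/HS (−). Of the cardiomyocyte marker genes sought, only Myh6, the alpha myosin heavy chain, could be tied to an identifier here, with HS (−) signals of 11788 and 15969. Its NS (−) spot, at 65487, was saturated, so its HS (−)/NS (−) ratio was at most 0.202, and its HS (ch+)/HS (−) ratio was 1.59. Myh6 was thus lower in HS (−) on both arrays, like the 3 genes. It is itself in the study's list and was chosen by the same limits, so it is no separate measure of cardiomyocyte content. The part of Myh6 in the ratios of the 3 genes was not tested. No fibroblast, endothelial or smooth muscle marker could be tied to an identifier, so fewer cardiomyocytes and less RNA per cardiomyocyte cannot be told apart.

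The windows around the start sites of the 3 genes are shown because the 3 genes come from the same list and the compound acts on chromatin. Each runs from 250 bases before to 50 bases after a start site in RefSeq (GRCr8), 5′ to 3′ on the gene's strand, with CpG dinucleotides in capitals. Ppa2 was matched by symbol, Suox and Lrp16 by accession, and in all 3 genes another annotated start lies further upstream.
Ppa2, chr2:224474623-224474922, plus strand: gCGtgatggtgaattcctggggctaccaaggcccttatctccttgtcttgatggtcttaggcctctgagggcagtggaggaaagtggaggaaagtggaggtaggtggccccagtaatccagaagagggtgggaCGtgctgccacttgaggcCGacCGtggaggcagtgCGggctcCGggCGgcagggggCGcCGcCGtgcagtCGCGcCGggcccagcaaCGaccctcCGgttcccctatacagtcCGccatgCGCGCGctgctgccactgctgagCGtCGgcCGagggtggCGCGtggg
Suox, chr7:1690186-1690485, minus strand: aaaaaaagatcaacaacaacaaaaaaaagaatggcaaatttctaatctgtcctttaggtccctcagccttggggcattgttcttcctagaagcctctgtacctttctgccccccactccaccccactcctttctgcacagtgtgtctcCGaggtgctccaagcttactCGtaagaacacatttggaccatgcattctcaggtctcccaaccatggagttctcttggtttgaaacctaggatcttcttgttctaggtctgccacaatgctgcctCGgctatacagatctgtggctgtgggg
Lrp16 (Macrod1), chr1:213675227-213675526, plus strand: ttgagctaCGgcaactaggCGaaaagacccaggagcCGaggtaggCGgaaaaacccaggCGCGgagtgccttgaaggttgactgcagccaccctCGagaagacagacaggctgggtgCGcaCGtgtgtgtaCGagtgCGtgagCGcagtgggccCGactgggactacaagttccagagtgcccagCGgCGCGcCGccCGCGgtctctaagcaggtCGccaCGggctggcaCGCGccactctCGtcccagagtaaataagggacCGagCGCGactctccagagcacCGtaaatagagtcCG

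The windows of Ppa2 and Lrp16 were rich in CpG, with 24 and 29 of these dinucleotides and a GC content of 66.7% and 63%. The Suox window held 3 CpG dinucleotides at a GC content of 47.7%. The medians over all 33469 windows of this length were 7 CpG dinucleotides and 51.7% GC, so the 3 genes did not share a CpG-rich window here. None of 3 motifs was found on either strand of these windows. They were AAGGTCA, a half-site of estrogen-related receptors present in 4.61% of all windows, a motif of NRF-1 present in 4.25%, and CCGGAAG, an ETS motif of the GABPA type present in 8.75%. These letters are not in these windows, and other start sites were not searched.

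Ppa2 had a blank-subtracted signal of 525 in NS (−) and 193 in HS (−) on array 1, and of 335 in HS (−) and 854 in HS (ch+) on array 2. The HS (−) channel was the lower of the pair on both arrays, although its reading on array 2 was well above that on array 1. After centering of each array, the ratio was 0.414 for HS (−)/NS (−) and 1.96 for HS (ch+)/HS (−). On the log2 scale these differences were −1.27 and 0.97.

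Suox had a signal of 261 in NS (−) and 115 in HS (−) on array 1, and of 141 in HS (−) and 274 in HS (ch+) on array 2. It showed the same order of channels, close to the lower limit of signal. The ratio was 0.497 for HS (−)/NS (−) and 1.5 for HS (ch+)/HS (−), or −1.01 and 0.59 on the log2 scale.

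Lrp16 had a signal of 990.2 in NS (−) and 317 in HS (−) on array 1, and of 416 in HS (−) and 969 in HS (ch+) on array 2. Again HS (−) was the lower channel on both arrays. The ratio was 0.360 for HS (−)/NS (−) and 1.79 for HS (ch+)/HS (−), or −1.48 and 0.84 on the log2 scale.

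**Figure D1:**
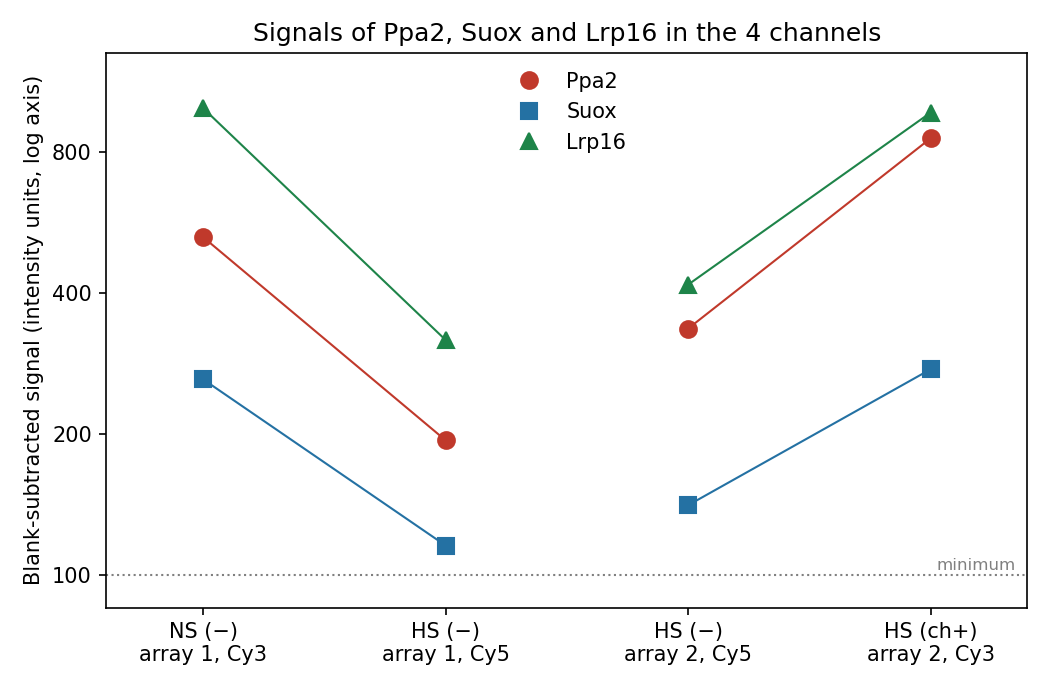
Blank-subtracted signal (intensity units, log axis) of Ppa2, Suox and Lrp16 in the 4 channels, with lines joining the channels of 1 array and a dotted line at the minimum signal of 100. In each gene HS (−) was the lower channel on both arrays, and the HS (−) reading was higher on array 2 than on array 1.

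The limits behind the list were an HS (−)/NS (−) ratio under 0.5 and an HS (ch+)/HS (−) ratio over 1.4. Of the 4127 genes, 57 (1.38%) were under the first limit, 242 (5.86%) were over the second and 50 (1.21%) met both, and all 3 genes lay inside because they were chosen so. Suox was the member nearest to the limits, at 0.0630 SD of the paired readings inside the first and 0.640 SD inside the second. Ppa2 lay 1.71 and 3.05 SD inside, and Lrp16 2.98 and 2.24 SD. The next genes inside the first limit were Chpt1 at 0.497 and Ces3 at 0.498, and the nearest outside stood at 0.501. Suox, at 115, also had the lowest HS (−) signal of the 50 genes.

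**Figure D2:**
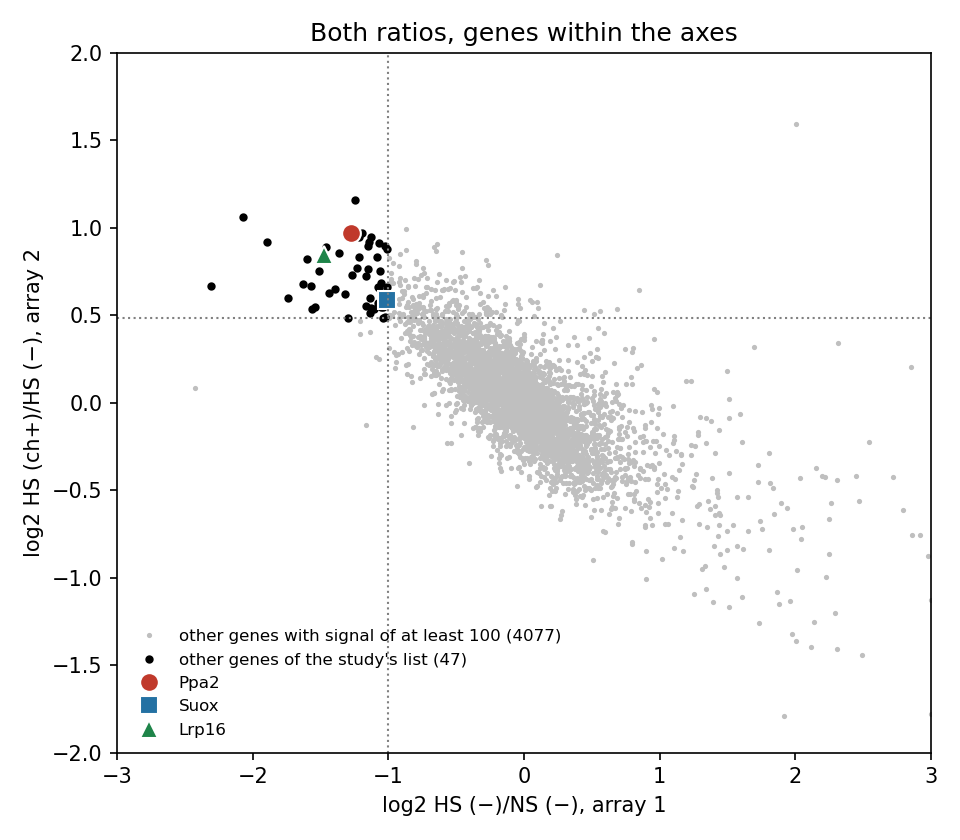
log2 HS (−)/NS (−) of array 1 (horizontal axis) against log2 HS (ch+)/HS (−) of array 2 (vertical axis), with dotted lines at the limits. Gray points are genes with signal of at least 100, black points the other genes of the study's list, and genes beyond the axes are not shown. Suox, with a ratio of 0.497, sat at the first limit, while Ppa2 and Lrp16 lay further inside. The HS (−) readings enter the 2 axes in opposite directions.

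The 3 genes also differed among themselves. In HS (−)/NS (−), Lrp16 was below Suox by 0.47 on the log2 scale, or 2.91 SD of the paired readings. In the SD of a difference between 2 such values, this was 2.06. Ppa2 was 1.64 SD below Suox and 1.27 SD above Lrp16, or 1.16 and 0.898 in the SD of 2 values. In HS (ch+)/HS (−), Ppa2 stood above Suox by 0.39, or 2.41 SD, and 1.71 in the SD of 2 values. Ppa2 and Lrp16 differed by 0.811 SD in that ratio, less than the spread of the paired readings. This SD is that of 1 channel between arrays, so it is not the error of a ratio.

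The level in HS (ch+) relative to NS (−) was obtained as the product of both ratios. It was 0.813 for Ppa2, 0.746 for Suox and 0.645 for Lrp16, where the genes with signal of at least 100 had a median of 0.990 and 52.5% of them lay under 1. Genes chosen for a low HS (−)/NS (−) ratio start below 1, so nothing is read from that count. In SD of the paired readings, the distance left below NS (−) was 1.87 for Ppa2, 2.64 for Suox and 3.96 for Lrp16. Recovery, the share of the log2 difference between NS (−) and HS (−) that was made up in HS (ch+), was 76.5% for Ppa2, 58.2% for Suox and 57.2% for Lrp16.

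Because NS (−) and HS (ch+) were both labeled with Cy3, their signals can also be set against each other without HS (−), after centering on the median of the same genes, which was 1.28. This comparison was added after the data had been seen. It gave 1.27 for Ppa2, 0.822 for Suox and 0.766 for Lrp16. Ppa2 was thus above NS (−) in this comparison and below it in the product of ratios, whereas Suox and Lrp16 were below NS (−) in both. Of the 50 genes of the list, 5 were above 1 in the direct comparison and 0 in the product, and of the 10 other genes marked for the mitochondrion 0 were above 1 in either. Over the 4127 genes the shares above 1 were 50% and 47.5%.

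The paired HS (−) readings differed most for Ppa2. As read, the signal of array 2 over array 1 was 1.73-fold for Ppa2, 1.22-fold for Suox and 1.31-fold for Lrp16, against a median of 1.11-fold over the 4127 genes. After removal of that median, the differences were 0.65, 0.14 and 0.25 on the log2 scale, or 4.05, 0.881 and 1.55 SD. All 3 readings were thus higher on array 2, above the median, where 50% of genes lay by construction. Ppa2 and Lrp16 exceeded 1 SD, against 18% of all genes, 14 of the 50 genes of the list and 2 of the 10 other marked genes. Both lay in the same block of the array, where the median difference was 0.20, so they are not independent and nothing is read from this count. Only 9 of 4127 genes (0.218%) had a larger absolute difference than Ppa2, which ranked first among the 50 genes of the list. For Lrp16 432 genes (10.5%) and for Suox 1312 genes (31.8%) had a larger one. These shares take all blocks together. Within block 1, which holds Ppa2 and Lrp16, the SD was 0.31, against 0.15 over the other blocks.

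A high HS (−) reading on array 2 lowers HS (ch+)/HS (−), and a low one on array 1 lowers HS (−)/NS (−). When the 2 HS (−) readings were exchanged between the arrays, Ppa2 gave 0.648 and 3.08, Suox 0.547 and 1.66, and Lrp16 0.427 and 2.13. The HS (ch+)/HS (−) ratios could only go up, because all 3 centered readings were lower on array 1. Only Lrp16 then met both limits, since Ppa2 and Suox were above 0.5 in HS (−)/NS (−).

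**Figure D3:**
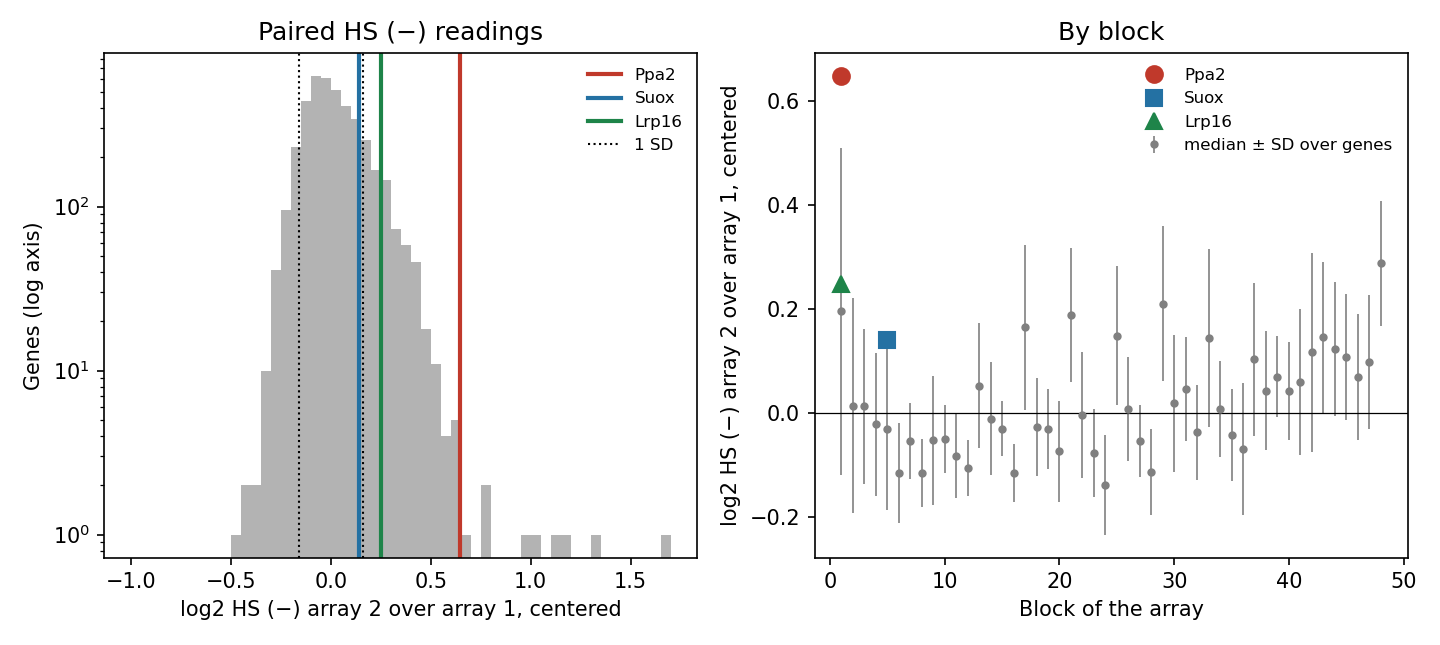
Left, distribution over 4127 genes (log axis) of the log2 HS (−) reading of array 2 over array 1 after centering, with dotted lines at 1 SD and colored lines at the 3 genes. Right, the same measure by block of the array, with gray points and bars for the median ± SD over the genes of a block. Ppa2, at 0.65, lay in the right tail, with 9 of 4127 genes further from 0, and block 1 had the widest spread.

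The local background value around the Ppa2 spot was large beside the spot intensity in the HS (−) channels. It was 63.2% of the spot intensity on array 1 and 66.9% on array 2, against medians of 45.7% and 48.4%, and 45.1% and 46.0% in the Cy3 channels. For Lrp16 the share was 44.7% and 44.5% in HS (−) and 29.0% and 29.7% in Cy3. For Suox it was 33.4% and 43.3% in HS (−), the lowest of the 3 genes on each array. The deposited ratios subtract the mean of blank spots and not this local value. Blank spots averaged 24.8 in Cy5 on array 1 and 25.5 on array 2, far below the local values of 138 and 241 at Ppa2. The blank means are over the whole array, and local values around blank spots were not compared. How much of a spot reading was background was therefore not tested.

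The median ratios differed between blocks of the array. The array has 48 blocks, and Ppa2 and Lrp16 lay in block 1 and Suox in block 5. The median HS (−)/NS (−) ratio was lowest in block 5, at 0.879 over 88 genes, and second lowest in block 1, at 0.897 over 74 genes, in a range up to 1.09. The median HS (ch+)/HS (−) ratio was highest in block 1, at 1.14, and second highest in block 5, at 1.09, in a range down to 0.923. Block 1 also had the widest spread of the paired HS (−) readings, with an SD of 0.31 against 0.15 over the other blocks. Its median difference was 0.20, so that the Lrp16 difference of 0.25 was 0.05 above its block and that of Ppa2 0.45 above it.

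Divided by the medians of their blocks, the HS (−)/NS (−) ratios were 0.462 for Ppa2, 0.565 for Suox and 0.401 for Lrp16. The HS (ch+)/HS (−) ratios were then 1.73, 1.38 and 1.58. Suox then passed neither limit. Genes chosen by these limits could not change direction over block medians of this range, so nothing is read from the directions. The 8 genes with signal of at least 100 within 2 rows and columns of Lrp16 had a median HS (−)/NS (−) of 0.661 and a median HS (ch+)/HS (−) of 1.27, and in 8 of 8 the centered HS (−) reading was higher on array 2. The 30 such genes within 5 rows and columns had medians of 0.903 and 1.13, and the 19 genes of any signal within 2 had 0.936 and 1.2, so the low median around Lrp16 depended on which neighbors were taken. Each of these sets holds NU3M_RAT, and the widest also Tardbp, which are in the study's list and so were chosen by these ratios. The 4 neighbors of Suox with signal of at least 100 within 2 rows and columns had medians of 0.808 and 1.04. Ppa2 had 0 such neighbors, and its 9 neighbors of any signal had medians of 0.814 and 1.18. The part of position in the ratios was not tested.

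**Figure D4:**
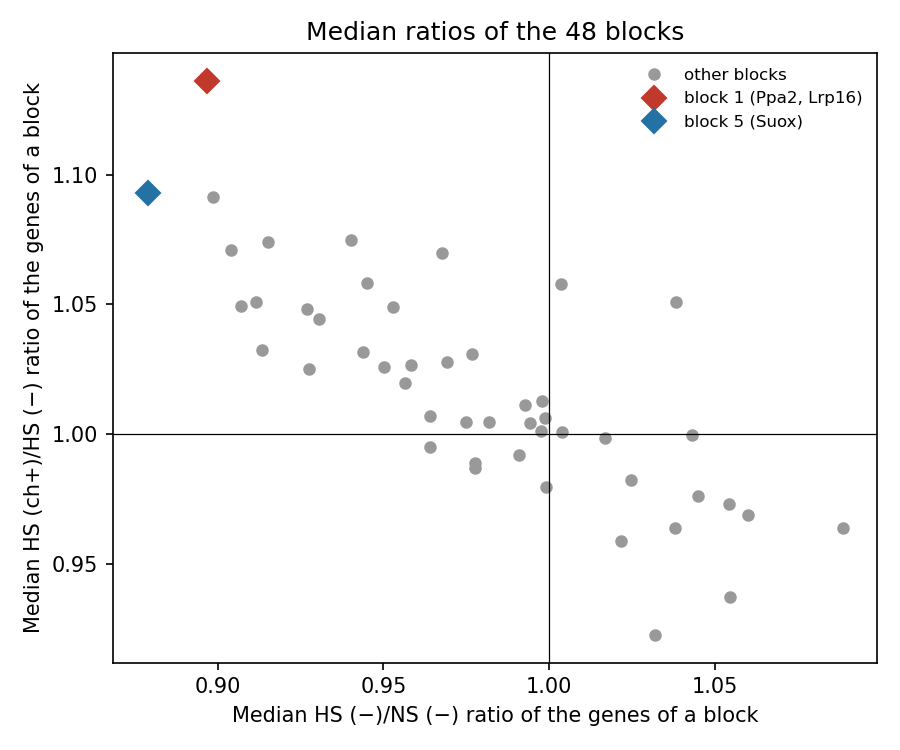
Median HS (−)/NS (−) ratio (horizontal axis) against median HS (ch+)/HS (−) ratio (vertical axis) of the genes with signal of at least 100 in each of the 48 blocks, with lines at 1. Blocks 1 and 5, which hold the 3 genes, lie at the upper left, at 0.897 and 1.14 and at 0.879 and 1.09. The HS (−) readings enter the 2 axes in opposite directions.

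The study's list marks 10 other genes for the mitochondrion. Since all 13 were chosen by the same limits, their order is a description. The other 10 had a median HS (−)/NS (−) ratio of 0.465, from 0.268 to 0.492, and for HS (ch+)/HS (−) a median of 1.53, from 1.4 to 1.89. Lrp16 was second lowest of the 13 in HS (−)/NS (−), after Pdp2, a phosphatase that activates pyruvate dehydrogenase, at 0.268. It was followed by MGC94604 (Mtfp1), a protein of mitochondrial fission, at 0.382, which is within the yardstick of it.

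Ppa2 was the fifth in that order, between Hadhsc (Hadh), an enzyme of fatty acid beta-oxidation, at 0.407 and MGC94704 (Ecsit), an assembly factor of respiratory complex I, at 0.426, neither of which differed from it by more than the yardstick. Suox was last, next to Mrpl19, a protein of the mitochondrial ribosome, at 0.492. In HS (ch+)/HS (−), Ppa2 was highest of the 13, above Pdp2 at 1.89, by less than the yardstick. Ppa2 also had the highest HS (ch+)/NS (−) ratio and the highest recovery, against a median recovery of 52.4% in the other 10. After removal of the median over all genes, the paired HS (−) readings of those 10 differed by a median of −0.01 on the log2 scale, from −0.25 to 0.27, with 4 of 10 above 0.

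By distance between the pairs of log2 ratios, the named genes most like Ppa2 were NU3M_RAT at 0.06, a row named for a subunit of complex I, and Col15a1, a collagen of basement membranes, at 0.08, with a row without a gene symbol at 0.14. Those most like Suox were the gene listed as NP_001099792.1 (Ndufs8), an iron-sulfur subunit of complex I, and the one listed as NP_001099581.1 (Acot13), a thioesterase, both at 0.05, with Adhfe1, a mitochondrial alcohol dehydrogenase, at 0.06. Lrp16 was nearest to Cd74, the invariant chain of antigen presentation and a leukocyte marker, at 0.05, whose ratios were 0.363 and 1.85. Cd74 was the only 1 of 5 leukocyte markers with an identifier here, and the part of leukocytes in these ratios was not tested. Next to it came the gene listed as NP_001100444.2 (Rbfox1), a splicing regulator, at 0.09 and a row without a gene symbol at 0.11. Within 1 SD of the paired readings lay 7 genes for Ppa2, 47 for Suox and 4 for Lrp16. The likeness is over 2 arrays, and only the 50 genes of the list could be named.

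**Figure D5:**
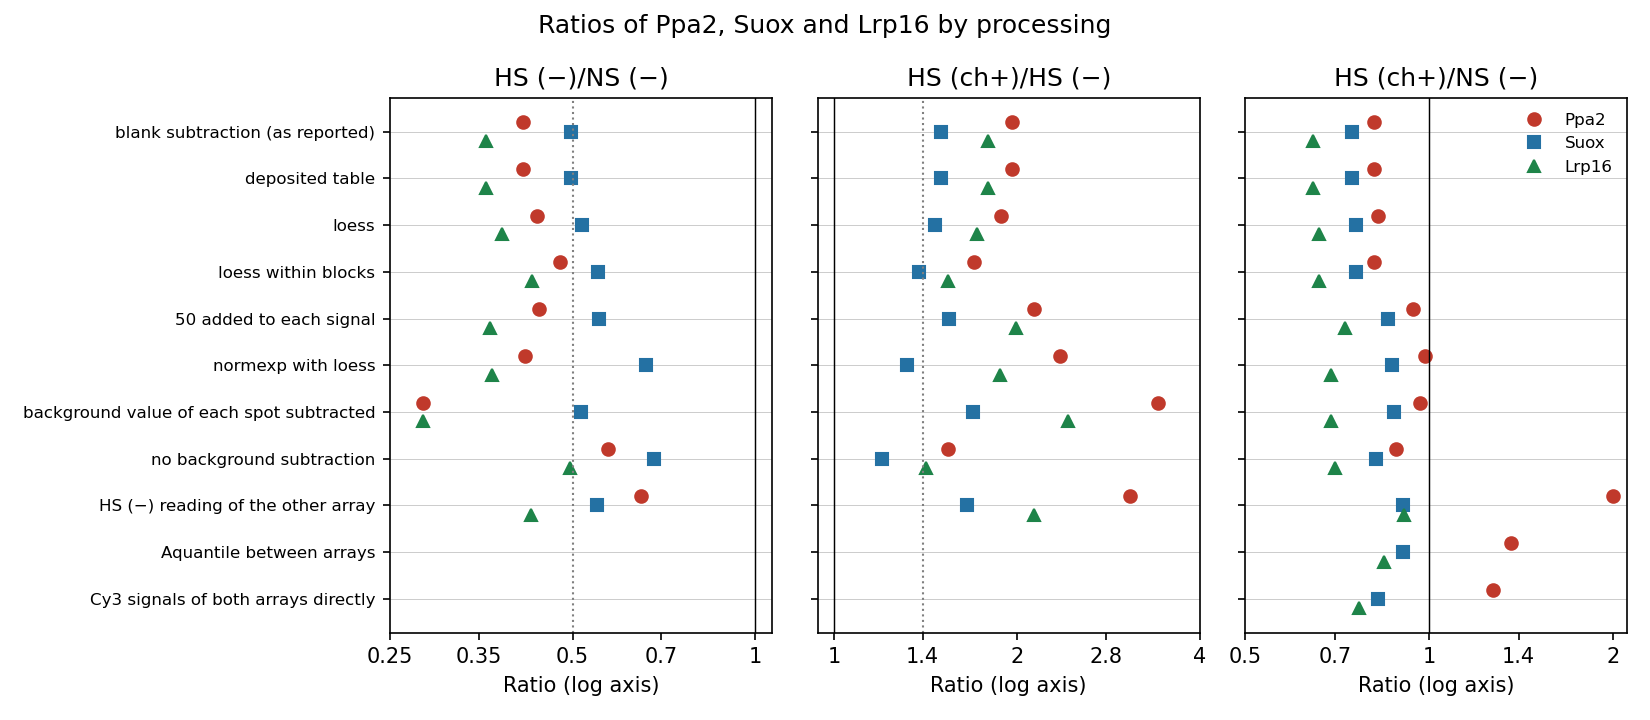
Ratios (log axes) of Ppa2, Suox and Lrp16 under the processing reported and under each alternative that gave a value, with dotted lines at the limits and a solid line at 1. In HS (−)/NS (−) and HS (ch+)/HS (−) all 3 genes stayed on 1 side of 1, while the HS (ch+)/NS (−) ratio of Ppa2 ran from 0.811 to 1.99.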

How the data were processed

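Left ventricular RNA was hybridized to 2 two-color oligonucleotide arrays (Toray Rat Oligo chip 20K), with RNA of 3 rats pooled per channel. The deposited scanner files hold the intensity of each spot and its local background. The authors deposited normalized log2 Cy3/Cy5 ratios, for which the mean of the blank spots (trimmed by 5% at each end) was subtracted, spots within 2 SD of it were dropped and each array was centered on its median. These steps were repeated from the intensities, and the log2 ratios differed from those deposited by at most 2.7e-05. Ratios were available for 12674 and 13639 genes. Those below were limited to 4127 genes that reached a signal of 100 in the HS (−) channel of each array. The number of arrays, 2, limits the precision.

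Genes were named by rule, namely the 3 members, the other genes marked for the mitochondrion that stood next to them in order, the genes just inside and outside the limits, and the named genes nearest in both ratios. The members and all lists were chosen with earlier results of these data known. Of 101 entries in lists of pyrophosphatases, sulfite and molybdenum cofactor genes, ADP-ribose enzymes, matrix enzymes and cell type markers, 8 had an array identifier here (the 3 members, Pdp2, Hadh, Ndufs8, Myh6 and Cd74), so no list was counted. The array design's gene names for the other 20124 identifiers were not used here. Python 3.11.15, numpy 2.4.6, pandas 2.3.3, R 4.3.3 and limma 3.58.1 (for the alternatives) were used, and the calculation was tested on simulated data.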

Additional observations from a re-analysis of the deposited data

How the results depend on the processing

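Of 129 values of the 3 genes under the alternatives, 73 moved by less than the spread of the paired readings, 51 moved further and 5 changed direction. The 73 include the deposited ratios, which follow the same processing and so could not move. No HS (−)/NS (−) or HS (ch+)/HS (−) ratio of these genes changed direction, which is no sign of stability in genes chosen for these ratios. Loess within blocks, the direct Cy3 comparison and centering on the same block were chosen after seeing the data. Values below are in the order HS (−)/NS (−), HS (ch+)/HS (−), HS (ch+)/NS (−) and recovery where several are given, and the cause of the shifts was not tested. The number of arrays limits all of them.

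With each spot's own background subtracted, Ppa2 gave 0.283, 3.41, 0.965 and 97.2%. Suox gave 1.69 for HS (ch+)/HS (−), 0.875 for HS (ch+)/NS (−), 79.8% recovery and a paired difference of −0.050. Lrp16 gave 0.284, 2.43 and 70.5% recovery. The SD of the paired readings was then 0.47, the Ppa2 difference was 1.07 SD, and 190 genes met both limits. Without any subtraction, Ppa2 gave 0.572 and 1.54, Suox 0.681 and 1.2, and Lrp16 0.494 and 1.42, and 5 genes met both limits. With 50 added to each signal, HS (ch+)/NS (−) was 0.938 for Ppa2 (recovery 92.3%), 0.854 for Suox and 0.728 for Lrp16 (recovery 68.5%). The median of all genes moved by 0.24 on the log2 scale in HS (ch+)/HS (−) with the spot background, by 0.19 with 50 added, and by 0.32 in HS (−)/NS (−) and −0.27 in HS (ch+)/HS (−) without subtraction.

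With normexp and loess, Ppa2 gave 2.36 for HS (ch+)/HS (−), 0.983 for HS (ch+)/NS (−), 98.1% recovery and a paired difference of 0.35. The SD of the paired readings was then 0.34, and the Ppa2 difference was 1.05 SD. Suox gave 0.659, 1.32 and 0.869, and its paired difference turned to −0.044. With Aquantile normalization between arrays, HS (ch+)/NS (−) turned to 1.36 for Ppa2 (recovery 137%), and was 0.907 for Suox (85.1%) and 0.843 for Lrp16 (82.2%). With the HS (−) readings exchanged between arrays, whose product counts the difference of readings 2 times, Ppa2 gave 0.648, 3.08, 1.99 and 259%, Suox 0.907 and 83.8%, and Lrp16 0.427, 2.13, 0.910 and 88.9%. The direct Cy3 comparison gave 1.27 and 127% for Ppa2, and 0.766 and 73.9% for Lrp16. Loess within blocks gave 0.476 and 1.70 for Ppa2 and 0.428 and 1.54 for Lrp16, and 27 genes met both limits. Centered on the same block, the paired difference was 0.45 for Ppa2 and 0.052 for Lrp16.

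Without a minimum signal 223 genes met both limits, and 32 did with a minimum of 200, which left Lrp16 alone of the 3. Suox missed at least 1 limit with either background change, with 50 added, under both loess fits, normexp and the other reading. Readings at the other scanner gains were not run, since the files used hold no intensities for them. No paired analysis was possible because each comparison had 1 array, and no replicate could be left out.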

Other observations

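Block 1 of the array held 7 of the 50 genes that met both limits, the most of any block. These 7 were 9.46% of its 74 genes with signal of at least 100, against 1.21% of all such genes. They were Ppa2, Lrp16, Cd74, Eno3, a muscle enolase of glycolysis, Tardbp, an RNA-binding protein, NU3M_RAT and LOC690825. These genes were named after their values were seen. Block 5, with Suox, held 2 of the 50, or 2.27% of its 88 genes. Next after block 1 came blocks 24 and 30, with 4 of the 50 each. Their median HS (−)/NS (−) ratios were 0.964 and 1.04, and their median HS (ch+)/HS (−) ratios 1.01 and 1.05.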
